A study of Rattus norvegicus with 9 samples.

Results

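The TXNIP/NLRP3 inflammasome genes described here are 6 rat genes, Txnip, Nlrp3, Casp1, Il1b, Il18 and Txn1. They were listed by identifier as members of the pathway, with earlier results of these data known, and all 6 were present among the 30560 genes of the deposited table. RNA was sequenced from HBZY-1 cells, an established rat line. Mesangial cells are contractile cells that hold together the capillary loops of the glomerulus, the filtering unit of the kidney. Of the 9 libraries, 3 came from cells given, at high dose, a water extract made from lyophilized powder of the leech Poecilobdella manillensis (the extract group), 3 from the LPS-induced group and 3 from the control group. LPS, lipopolysaccharide, is a bacterial outer membrane component used to provoke inflammation. The labels give no dose or exposure time, do not say if LPS was also given to the extract group or what the control cells were given. All groups are the same cell line, so the libraries of a group are cultures of 1 line and not separate animals. The study's title places the effect of the extract on inflammatory injury in the TXNIP/NLRP3 pathway, which is the question these genes address.

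The NLRP3 inflammasome is a cytosolic complex in which the sensor NLRP3 recruits an adaptor and the protease caspase-1. Active caspase-1 cuts the precursors of the cytokines IL-1β and IL-18 into their secreted forms. Inflammatory signals such as LPS prime the system by raising Nlrp3 and Il1b mRNA, and a separate trigger then starts assembly. TXNIP, thioredoxin-interacting protein, binds and inhibits thioredoxin, the small redox protein encoded by Txn1, and under oxidative stress it can leave thioredoxin and bind NLRP3. Assembly, cleavage and binding occur at the protein level and were not measured here. Mesangial identity was not checked against marker genes, because the deposited identifiers are not paired with names. The names of the 6 genes come from the list that defines them.

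Levels are given in TPM, which gives a transcript's abundance per 1000000 transcripts of its library. TPM is corrected for transcript length, so levels of different genes in a library can be set side by side. It keeps no record of read depth, which is therefore unknown. Between 11954 and 12104 genes reached 1 TPM in a library, and pairs of libraries within a group had a Pearson correlation across genes of at least 0.9766 on log2 values. Testing was limited to the 12192 genes whose TPM averaged 1 or more across the 9 libraries. Of the 6 genes, 4 passed this filter (Txnip, Nlrp3, Casp1 and Txn1), while Il1b and Il18 were near 0 TPM, meaning below 1 TPM in every library.

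Txnip and Nlrp3 were highest in LPS cells and lowest in extract cells, whereas Casp1 and Txn1 were highest in extract cells. The mRNAs of both cytokines stayed at or near 0 TPM in all 3 groups. Txnip (ENSRNOG00000021201) was listed at 18.99, 13.92 and 12.73 TPM in extract replicates 1 to 3, at 43.48, 54.57 and 47.86 TPM in LPS replicates and at 31.94, 37.59 and 35.99 TPM in control replicates. No value of one group fell within the range of another. Its means were 15.2 ± 3.3 TPM in extract, 48.6 ± 5.6 TPM in LPS and 35.2 ± 2.9 TPM in control cells (SD, n = 3 each). The coefficient of variation of Txnip was 21.9% in the extract group, the widest relative spread among the 4 tested genes.

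The mRNA of thioredoxin was far more abundant than that of its inhibitor in every library. Txn1 (ENSRNOG00000012081) was listed at 366.19, 324.95 and 346.48 TPM in extract replicates, at 237.52, 205.97 and 218.07 TPM in LPS replicates and at 245.18, 253.97 and 270.14 TPM in control replicates. The extract libraries stood well above the other 6, and the LPS libraries lay just below the control libraries without overlap. The group means were 345.9 ± 20.6 TPM in extract, 220.5 ± 15.9 TPM in LPS and 256.4 ± 12.7 TPM in control cells.

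Nlrp3 (ENSRNOG00000003170), the sensor, showed the widest range of the 4 tested genes in relative terms. It was listed at 7.82, 8.1 and 6.45 TPM in extract replicates, at 35.68, 46.03 and 44.63 TPM in LPS replicates and at 14.1, 15.01 and 13.96 TPM in control replicates. Each group occupied its own range, with extract below control and control below LPS. The means were 7.46 ± 0.88 TPM in extract, 42.1 ± 5.6 TPM in LPS and 14.4 ± 0.57 TPM in control cells.

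Casp1 (ENSRNOG00000007372) encodes the protease that the complex activates. It was listed at 38.56, 39.48 and 35.71 TPM in extract replicates, at 25.7, 22.91 and 29.52 TPM in LPS replicates and at 28.82, 27.42 and 29.15 TPM in control replicates. The extract libraries lay above all others, while LPS replicate 3 exceeded every control library and the other LPS libraries lay below them. Means were 37.9 ± 2.0 TPM in extract, 26.0 ± 3.3 TPM in LPS and 28.5 ± 0.92 TPM in control cells.

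Il1b (ENSRNOG00000004649), which encodes the precursor of IL-1β, was listed at 0 TPM in the 3 extract libraries, in LPS replicate 1 and in the 3 control libraries. LPS replicates 2 and 3 each had 0.08 TPM. Il18 (ENSRNOG00000009848), which encodes the precursor of IL-18, was at 0.41 TPM in extract replicate 3 and at 0 TPM in the other 8 libraries, which include all 3 LPS libraries. With the read depth unknown, a listed 0 does not show that the transcript was absent. Neither cytokine gene passed the filter on low values, and no fold change is given against groups listed at 0.

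**Figure D1:**
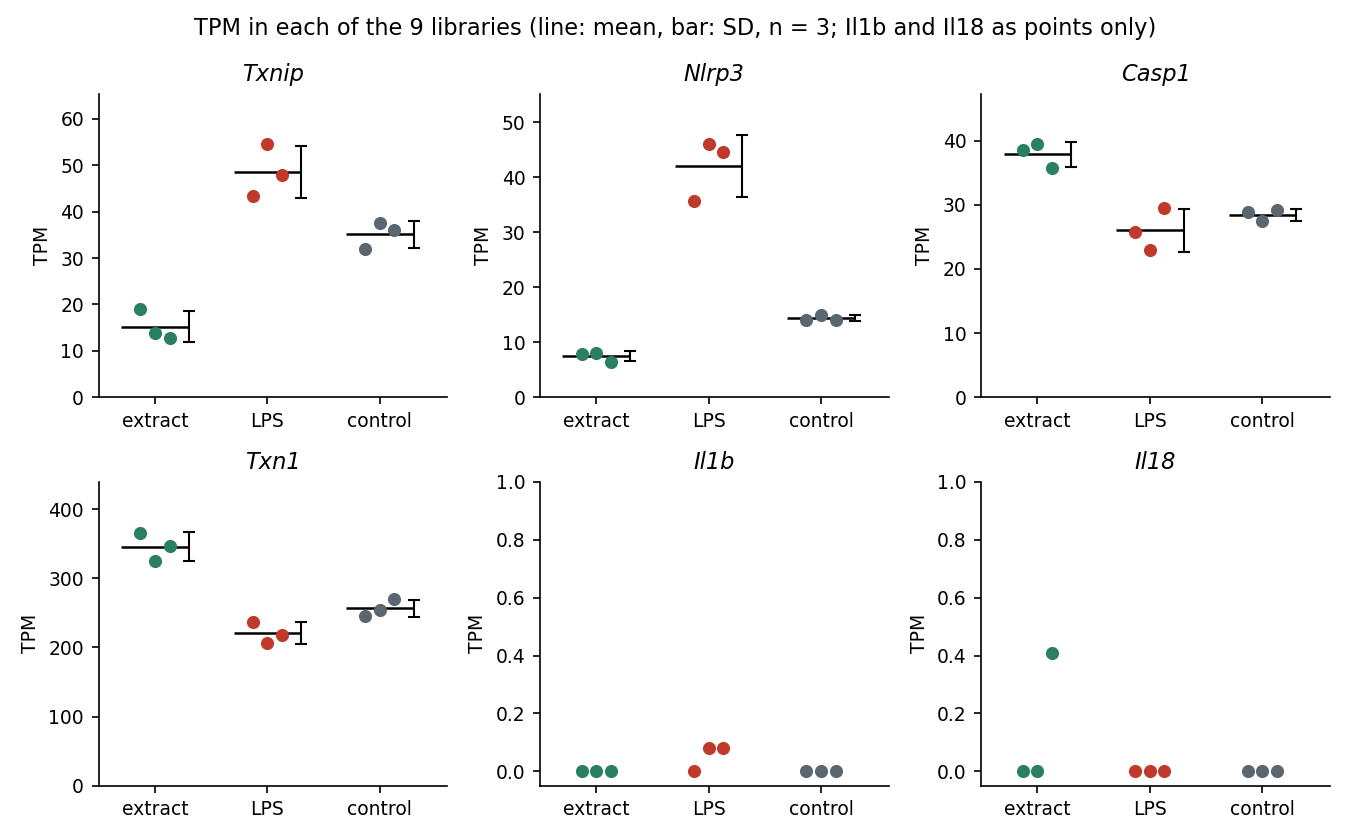
TPM (vertical axis, linear) of each gene in the 9 libraries, with extract, LPS and control from left to right; points are libraries, lines are group means and bars are SD (n = 3), and Il1b and Il18 are shown as points only. Txnip and Nlrp3 are highest in LPS and lowest in extract libraries, Casp1 and Txn1 are highest in extract libraries, and Il1b and Il18 do not pass 0.41 TPM.

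Promoter sequences are shown for the 3 genes above 1 TPM that have an entry in the RefSeq promoter table of the assembly GRCr8, since these are the genes whose differences are tested below. Of the 6 genes 5 have an entry, and Txnip does not. Each window runs from 250 bases before to 50 bases after the annotated gene start, 5′ to 3′ on the strand of the gene. Positions belong to GRCr8 and are not those of the deposited data, whose build the sources used here do not give. Capitals mark letters that match any of 5 motifs, which were chosen after the values were seen. GGGANTTTC was used for NF-κB, and TGANNNNGC as a loose form of the antioxidant response element, which NRF2 binds. GAAANNGAA was used for the interferon-stimulated response element and CACGTG for the E-box. These were searched on both strands, and TATAAA for the TATA box on the strand of the gene. No match overlaps one of another motif in these windows.
Nlrp3, chr10:44827848-44828147, plus strand: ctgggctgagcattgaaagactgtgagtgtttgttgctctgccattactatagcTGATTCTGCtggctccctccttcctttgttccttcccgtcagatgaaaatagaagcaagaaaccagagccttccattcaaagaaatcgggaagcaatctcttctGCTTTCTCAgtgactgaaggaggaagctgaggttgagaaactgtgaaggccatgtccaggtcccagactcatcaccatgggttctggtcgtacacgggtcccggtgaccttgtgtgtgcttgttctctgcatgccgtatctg
Casp1, chr8:10872580-10872879, plus strand: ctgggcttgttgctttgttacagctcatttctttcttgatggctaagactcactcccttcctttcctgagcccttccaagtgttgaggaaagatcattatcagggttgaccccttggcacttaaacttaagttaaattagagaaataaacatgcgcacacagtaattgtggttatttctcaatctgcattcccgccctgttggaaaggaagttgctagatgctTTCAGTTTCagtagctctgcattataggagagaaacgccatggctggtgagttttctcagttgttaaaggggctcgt
Txn1, chr5:77519636-77519935, minus strand: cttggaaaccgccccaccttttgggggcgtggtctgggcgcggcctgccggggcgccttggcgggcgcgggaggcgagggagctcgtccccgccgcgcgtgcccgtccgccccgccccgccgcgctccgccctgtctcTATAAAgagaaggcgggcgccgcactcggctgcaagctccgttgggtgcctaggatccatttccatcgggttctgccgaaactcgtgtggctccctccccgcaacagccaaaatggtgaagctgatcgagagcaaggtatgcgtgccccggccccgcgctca

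The Nlrp3 window held 2 matches to the antioxidant response element letters, which start at -196 and -92 relative to the gene start, and none to the other motifs. In Casp1 there was 1 match, to the interferon-stimulated response element letters, at -27. Txn1 had 1 match, TATAAA at -112, and its window was 70% G and C, against 49.7% in Nlrp3, 43.3% in Casp1 and a median of 51.7% over all windows. Of the 33469 windows of 300 bases in the table, 1.15% hold the NF-κB letters, 40.5% those of the antioxidant response element, 9.71% those of the interferon-stimulated response element, 6.42% CACGTG and 8.8% TATAAA. The patterns are thus of unequal strictness, from 1.15% of windows for NF-κB to 40.5% for the antioxidant response element. Counts of matches to different motifs therefore cannot be set against each other. A match describes the letters and is not evidence of a bound site. The annotated gene starts were not checked against transcription starts. In Txn1 the 50 bases from the gene start open with ATG, so -112 may not be a distance from a transcription start.

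LPS versus control addressed how the genes differed in the inflammatory model. The tests used limma on log2(TPM + 1) over all 12192 genes, and a gene is called changed at a Benjamini-Hochberg adjusted p below 0.05 over those genes. Such p-values rest on the spread among replicate libraries, which may be partly technical. Of the 4 tested genes, 3 were called, where 40.7% of all tested genes were. Nlrp3 rose 2.93-fold by the ratio of mean TPM, or by 1.48 ± 0.10 on the log2 scale (SE, limma adjusted p = 5.05e-06). Only 119 of the other tested genes had a higher log2 fold change in this comparison. Among all tested genes, 2.53% were called with at least a 2-fold change in either direction, and Nlrp3 was the only one of the 4 among them.

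Txnip rose more modestly under LPS, by 0.45 ± 0.14 on the log2 scale (limma adjusted p = 0.0241), a ratio of means of 1.38. The call did not survive without LPS replicate 2 (adjusted p = 0.0879), LPS replicate 3 (0.0537) or control replicate 1 (0.0825), nor with no filter on low genes (0.0536). Over these alternatives and the others run, the fold change stayed between 0.37 and 0.55. Txn1 fell slightly, by 0.22 ± 0.062 on the log2 scale (limma adjusted p = 0.0193). That call did not hold under other scalings of the libraries. The median log2 fold change of all tested genes was -0.08 in the main fit. After rescaling by the median of ratios the log2 fold change of Txn1 was -0.12 (adjusted p = 0.14), and with quantile normalization it was -0.16 (adjusted p = 0.0589). The Txn1 call was also lost without LPS replicate 2 (0.0693), LPS replicate 3 (0.0522) or control replicate 3 (0.0687). Casp1 was not called, at -0.13 ± 0.080 (limma adjusted p = 0.229), but it passed without LPS replicate 3, with a log2 fold change of -0.22 (adjusted p = 0.026). The LPS and control values of Casp1 overlapped, while those of Txnip, Nlrp3 and Txn1 did not, as for 50.1% of all tested genes.

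Extract versus LPS asked whether the leech extract group departed from the inflammatory model. All 4 tested genes were called, where 59.4% of all tested genes were, and the values of the 2 groups overlapped for none of the 4, as for 65.1% of all tested genes. Nlrp3 fell by 2.35 ± 0.10 on the log2 scale (limma adjusted p = 1.36e-07), to 0.177 of the LPS mean. Only 26 of the other tested genes had a lower log2 fold change. Txnip fell by 1.63 ± 0.14 (limma adjusted p = 6.25e-06), to 0.313 of the LPS mean, with 88 genes below it. Both were among the 4.54% of tested genes called with at least a 2-fold change in either direction.

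Casp1 and Txn1 rose in extract against LPS cells, by smaller amounts. The log2 fold change of Txn1 was 0.65 ± 0.062 (limma adjusted p = 1.57e-05), a ratio of means of 1.57. That of Casp1 was 0.53 ± 0.080 (limma adjusted p = 0.000327), a ratio of 1.46. The mRNAs of the sensor and the thioredoxin inhibitor were thus lower in extract cells than in LPS cells, and those of the protease and thioredoxin were higher.

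Extract versus control addressed how far the genes of extract cells stood from the control level. All 4 were called again, where 51.7% of all tested genes were, and none of them overlapped, as for 61.1% of all tested genes. Txnip was lower in extract than in control cells, at -1.17 ± 0.14 on the log2 scale (limma adjusted p = 7.85e-05) and a mean 0.433 of the control mean. Nlrp3 was also below control, at -0.87 ± 0.10 (limma adjusted p = 9.4e-05) and 0.519 of the control mean. Txnip was the only one of the 4 among the 3.12% of tested genes called with at least a 2-fold change in either direction. Casp1 was above control by 0.40 ± 0.080 (limma adjusted p = 0.00238) and Txn1 by 0.43 ± 0.062 (limma adjusted p = 0.000314). The 3 comparisons share libraries in pairs, so their fold changes for a gene are not independent of each other.

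In order of level, Txnip and Nlrp3 ran LPS, control, extract, with every neighbouring pair called, although the LPS-control step of Txnip was lost under the alternatives named above. Casp1 and Txn1 ran extract, control, LPS, and for both the lower step was either not called or not kept after rescaling. In both comparisons with the extract group, the calls of all 4 genes held under all 18 alternatives run for each.

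**Figure D2:**
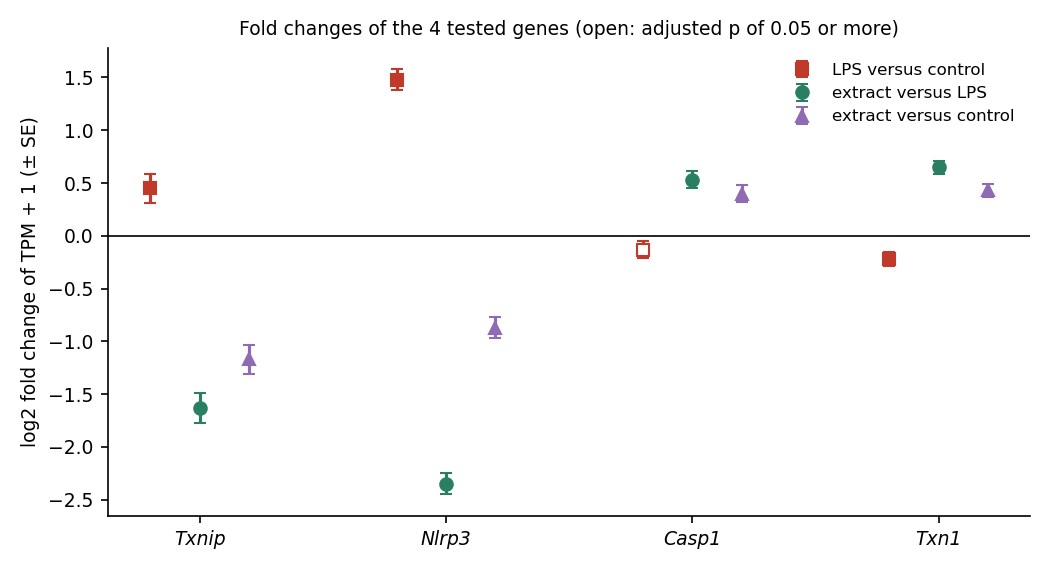
Log2 fold change of TPM + 1 (vertical axis, ± SE) of the 4 tested genes in the 3 comparisons, from limma over all 9 libraries; filled symbols have an adjusted p below 0.05. Nlrp3 and Txnip are above 0 in LPS versus control and below 0 in both extract comparisons, and Casp1 and Txn1 are above 0 in both extract comparisons.

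Position within a library does not depend on how libraries are scaled against each other. Nlrp3 exceeded 26.6%, 27.2% and 23.1% of the tested genes in the extract libraries, 68.1%, 74.8% and 73.4% in the LPS libraries and 39.9%, 41.7% and 39.6% in the control libraries. It thus moved across a large part of the distribution of expressed genes, with no overlap between groups. Txnip exceeded 38.1% to 49.2% of tested genes in extract, 73.3% to 78.5% in LPS and 63.5% to 68.1% in control libraries. Casp1 ranked above 67.1% to 69.7% in extract, 56.3% to 62.5% in LPS and 59.3% to 60.8% in control libraries. Txn1 was near the top of every library, above 94.6% of tested genes or more.

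**Figure D3:**
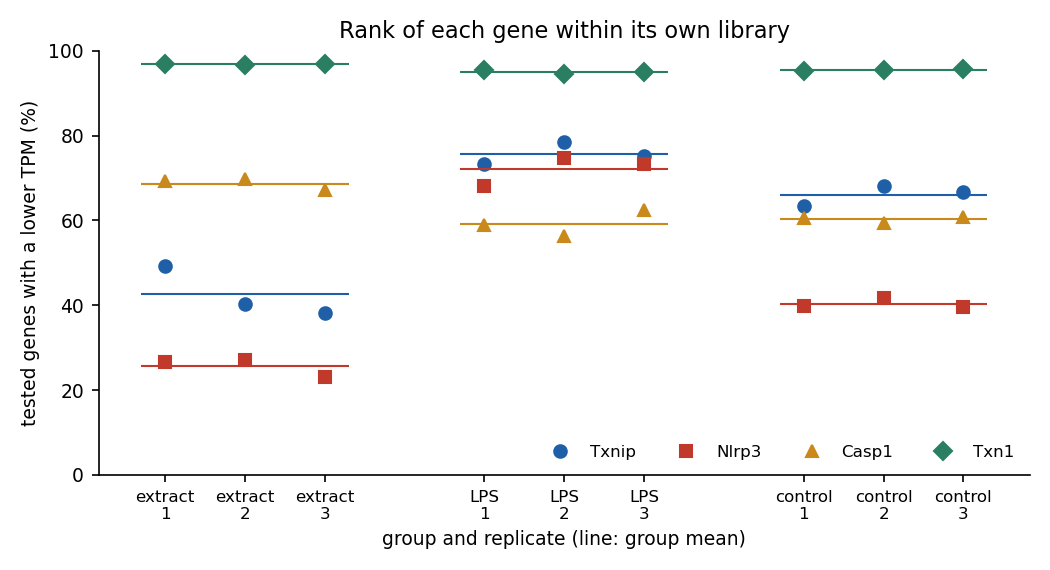
Percent of the 12192 tested genes with a lower TPM than each gene (vertical axis), in each library by group and replicate; lines are group means. Nlrp3 lies between 23.1% and 27.2% in extract, 68.1% and 74.8% in LPS and 39.6% and 41.7% in control libraries, while Txn1 stays at 94.6% or more throughout.

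The balance between the mRNAs of the inhibitor and thioredoxin was compared as the Txnip to Txn1 ratio within each library. As a plain ratio of TPM it also does not depend on scaling. The log2 ratio below depends on it in part, because 1 TPM was added to each gene. Txnip TPM was 5.19%, 4.28% and 3.67% of Txn1 TPM in extract replicates, 18.3%, 26.5% and 21.9% in LPS replicates and 13%, 14.8% and 13.3% in control replicates. On the log2 scale, with 1 TPM added to each gene, the ratio averaged -4.44 ± 0.23 in extract, -2.16 ± 0.26 in LPS and -2.83 ± 0.096 in control cells (SD, n = 3 each). The groups did not overlap. In each comparison Txnip and Txn1 had already differed without overlap, in opposite directions. The separation of the ratio, and so the exact p below, restates those differences. The difference was 0.67 ± 0.16 (SE) for LPS minus control, -2.28 ± 0.20 for extract minus LPS and -1.60 ± 0.14 for extract minus control. Each had an exact two-sided permutation p of 0.10, the smallest that 3 against 3 libraries allow, also after adjustment over the 3 comparisons, so the test cannot pass 0.05.

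Sensor and protease mRNAs were set against each other in the same way, a ratio chosen after the values were seen and given without a test. Nlrp3 TPM was 20.3%, 20.5% and 18.1% of Casp1 TPM in extract replicates, 139%, 201% and 151% in LPS replicates and 48.9%, 54.7% and 47.9% in control replicates. Nlrp3 TPM therefore exceeded Casp1 TPM in the LPS libraries and was below it in the other 6.

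**Figure D4:**
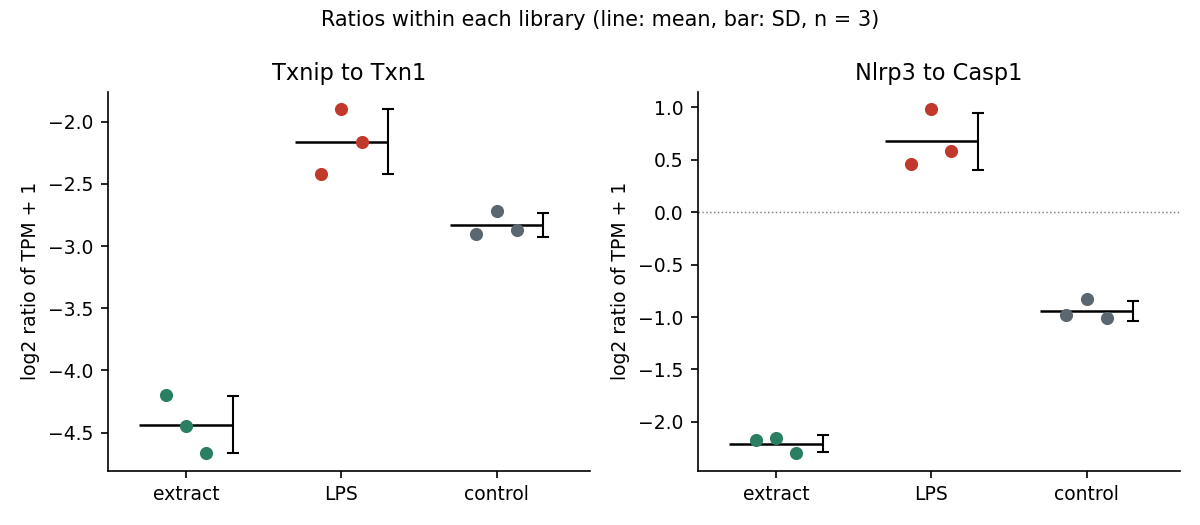
Log2 ratio of TPM + 1 within each library (vertical axis) for Txnip to Txn1 and for Nlrp3 to Casp1, with extract, LPS and control from left to right; points are libraries, lines are means and bars are SD (n = 3). The extract libraries have the lowest and the LPS libraries the highest ratio in both panels, and the Nlrp3 to Casp1 ratio is above 0 in the LPS libraries only.

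The transcript table showed which annotated transcripts carried these differences. A transcript was linked to a gene where the shortest run of consecutive rows added up to the TPM of the gene in each of the 9 libraries and no other run of that length did. This linked transcripts of Txnip, Nlrp3, Casp1 and Txn1, while the near-zero values of Il1b and Il18 matched several runs and were not linked. Transcripts at 0 TPM throughout cannot be found this way. Txn1 was carried by 1 transcript, ENSRNOT00000016447, whose values equal those of the gene. Its LPS-control difference was called over all transcripts (limma adjusted p = 0.0398) but not after median-of-ratios rescaling (0.213), nor without any 1 of the 3 control libraries, LPS replicates 2 and 3 or extract replicate 3 (0.0523 to 0.122). Txnip was carried by ENSRNOT00000028793, and its other linked transcript was above 0 in LPS replicate 2 alone, at 0.55 TPM.

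Nlrp3 was divided between 2 transcripts. ENSRNOT00000004280 held 84.4%, 90.7% and 85.3% of Nlrp3 TPM in extract replicates, 87.7%, 84.6% and 89.4% in LPS replicates and 77.2%, 100% and 85.5% in control replicates. These shares overlapped between all groups. Its level was 6.48 ± 0.93 TPM in extract, 36.7 ± 4.7 TPM in LPS and 12.6 ± 2.1 TPM in control cells. Its log2 fold changes were close to those of the gene. LPS cells differed from control cells by 1.47 ± 0.14 (limma adjusted p = 0.000182 over 19383 transcripts). Extract cells differed from LPS cells by -2.33 ± 0.14 (limma adjusted p = 5.61e-06) and from control cells by -0.86 ± 0.14 (limma adjusted p = 0.00203). Of all tested transcripts 23% were called between LPS and control cells, 39.1% between extract and LPS cells and 32% between extract and control cells.

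The minor Nlrp3 transcript, ENSRNOT00000086710, was listed at 1.22, 0.75 and 0.95 TPM in extract replicates, at 4.4, 7.07 and 4.74 TPM in LPS replicates and at 3.22, 0 and 2.04 TPM in control replicates. It was lower in extract than in LPS cells (log2 fold change -1.68 ± 0.47, limma adjusted p = 0.0199), a call lost without LPS replicate 2 (0.069), extract replicate 2 (0.059) or extract replicate 3 (0.0528) and with a pseudocount of 0.1 (0.136). Against control it was not called, at 1.43 ± 0.47 for LPS (limma adjusted p = 0.0589) and -0.25 ± 0.47 for extract (limma adjusted p = 0.724), values that rest on a control group that spans 0 to 3.22 TPM. Without control replicate 2, listed at 0, both differences passed, at 0.81 for LPS (adjusted p = 0.0465) and -0.87 for extract (adjusted p = 0.0296). The LPS difference also passed with a pseudocount of 5, at 0.64 (adjusted p = 0.0281), and without control replicate 1, at 1.85 (adjusted p = 0.0257), where that of extract was 0.17 (adjusted p = 0.811).

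The main Casp1 transcript, ENSRNOT00000009993, held between 95.2% and 97.7% of Casp1 TPM in every library. It exceeded its LPS level in extract cells (0.52 ± 0.088 on the log2 scale, limma adjusted p = 0.00169) and also its control level (0.40 ± 0.088, limma adjusted p = 0.0089). For the main Txnip transcript the LPS-control difference was the same as for the gene, at 0.45 ± 0.14, but the adjusted p over all transcripts was 0.0509 (limma), on the other side of the threshold. It fell below 0.05 without extract replicate 1 (0.0131) or extract replicate 3 (0.0418). Those libraries enter only the shared estimate of the spread, the filter and the adjustment over the transcripts tested. The adjusted p was also below 0.05 with a pseudocount of 5 (0.0387) or after median-of-ratios rescaling (0.0317).

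**Figure D5:**
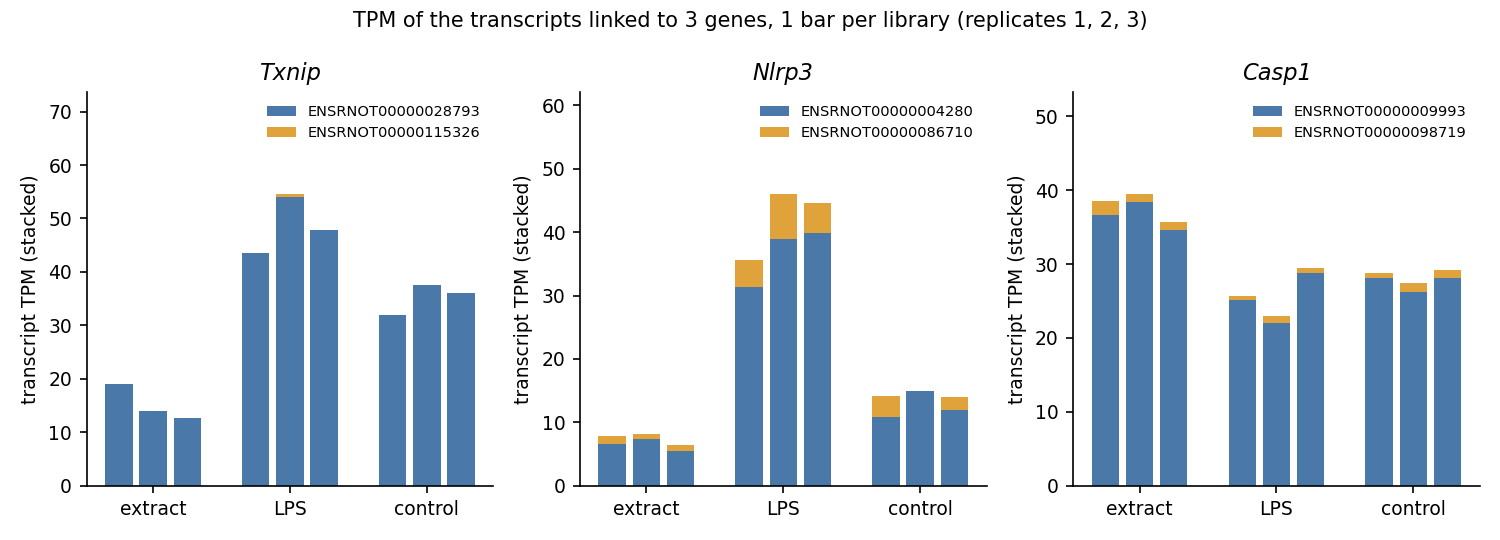
TPM of the transcripts linked to Txnip, Nlrp3 and Casp1 (vertical axis, stacked), 1 bar per library in the order of replicates 1, 2 and 3, with extract, LPS and control from left to right. The main transcript makes up 95.2% or more of Casp1 and between 77.2% and 100% of Nlrp3.

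The gene with the most similar pattern was found for each of the 4 tested genes. The measure was the root mean square difference over the 9 libraries on the log2(TPM + 1) scale, after each gene's mean was subtracted, and 12191 other genes were compared. The deposited files and the reference table do not pair these identifiers with names. Closest to Txnip was ENSRNOG00000004006, with a difference of 0.097, at 29.1 ± 3.1 TPM in extract, 88.7 ± 8.0 TPM in LPS and 65.4 ± 6.3 TPM in control cells. Nlrp3 had no gene as close, and its nearest, ENSRNOG00000029191, differed by 0.17 and stood at 2.99 ± 0.42 TPM in extract, 18.0 ± 3.2 TPM in LPS and 7.66 ± 0.31 TPM in control cells. For Casp1 the nearest was ENSRNOG00000017753, at a difference of 0.046, and for Txn1 ENSRNOG00000016066, at 0.041. The latter stood at only 3.24 TPM in extract, 1.82 TPM in LPS and 2.25 TPM in control cells. For Casp1 330 genes, and for Txn1 117, were closer than the gene's own within-group SD, against 13 for Txnip and 0 for Nlrp3. Among the 4 genes themselves, Casp1 and Txn1 were the most alike, with a difference of 0.12, and Txnip and Nlrp3 differed by 0.45. Genes with small changes lie close to many others on this measure, so these distances describe patterns and carry no test.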

How the data were processed

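Total RNA from 9 libraries was measured, and the authors deposited TPM values per gene and per transcript, rounded to 2 decimals. Tools named in the submitters' processing notes are HISAT2 2.1.0, RSEM 1.3.3 and fastp, without roles; neither build, annotation nor strandedness is stated there. Each column was matched to the library whose title starts with its code. TPM values were log2-transformed after 1 was added, and genes averaging under 1 TPM were left out. A group-means model over the 9 libraries was fitted in R 4.3.3 with limma 3.58.1, using a mean-variance trend and two-sided tests on 6 residual degrees of freedom, with Benjamini-Hochberg adjustment over all genes (or transcripts) tested. Fold changes on this scale understate changes of low genes. The fit was run on simulated independent values with known changes in a small share of the genes and no shift of scaling. That run does not bear on calls that depend on scaling. Transcript sums were matched within 0.006 TPM per rounded value. Libraries were not paired by replicate number. Of the deposited identifiers, 0 matched the 47357 genes of the RefSeq table, so 51 other pathway genes listed by symbol, and cell type markers, were not analysed here. The rule for named genes takes all 6 genes and the gene nearest in pattern to each tested one. Members, lists and tests were chosen with earlier results of these data known.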

Additional observations from a re-analysis of the deposited data

How the results depend on the processing

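Settings were varied one at a time: the pseudocount (0.1, 5), the filter (none, 5 TPM), rescaling (median of ratios, quantile), the replicate block, the trend, the groups fitted, and each library left out. The number of genes called among the 6 kept within 1.5 times its value except in LPS versus control with 1 library left out, where it ranged from 1 (without LPS replicate 2) to 3. The counts of all genes called stayed within 1.5 times in every alternative. With the replicate block the calls of the 4 tested genes did not change. Deviations of same-numbered libraries correlated at -0.055 to 0.095 and those of differently numbered ones at -0.11 to 0.089. Between extract and LPS libraries, same-numbered pairs (0.023, 0.078 and 0.095) lay above all differently numbered ones, which reached 0.005 at most. In the other comparisons the 2 kinds of pair overlapped. These correlations do not settle whether the numbers pair the libraries. The Txnip to Txn1 ratio kept its direction throughout. The extract-control difference of the minor Nlrp3 transcript was 0.24 with a pseudocount of 0.1, a change of sign without a call whose cause was not tested, and ranged from -0.87 to 0.17 with 1 library left out. Depth is unknown, so whether Il1b and Il18 lacked expression or reads was not examined.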

Other observations

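The Nlrp3 to Txnip ratio within a library, a measure chosen after the values were seen, was computed in every library. Nlrp3 TPM was 41.2%, 58.2% and 50.7% of Txnip TPM in extract replicates, 82.1%, 84.4% and 93.3% in LPS replicates and 44.1%, 39.9% and 38.8% in control replicates. The LPS libraries had the highest ratios, without overlap with either other group. Extract replicates 2 and 3 lay above every control library, and extract replicate 1 lay within the control range. On the log2 scale, with 1 TPM added to each gene, extract minus control was 0.31 ± 0.15 (SE), from means of -0.93 in extract and -1.23 in control cells. No test was run on this ratio.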
